A study of Mus musculus with 12 samples.

Results

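The 47 genes described here mark T cells, natural killer (NK) cells and the killing machinery both use. They were found by symbol in the deposited count tables, with no measured value in the rule, and each of the 47 matched 1 identifier among the 55335 genes listed. They fall into 16 genes of T cell identity, 15 of the cytotoxic effector program, 6 of NK cells, 6 linked to regulatory T cells and 4 inhibitory receptors.

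The series holds 12 RNA-seq libraries in 4 groups of 3. Wild-type CT26 cells, a mouse colorectal cancer line, were cultured with the solvent DMSO or with 1 µM midostaurin, an inhibitor of several kinases, for 48 h. CT26 tumors under the skin were taken from animals given vehicle or midostaurin at 40 mg/kg, begun on day 7 after inoculation and continued over 2 weeks. The labels give neither the host strain nor whether the 3 libraries of a group are separate animals or cultures. Each p-value therefore reflects only how far these libraries scatter, which need not be scatter between animals or cultures. Pairs of tumors within a group differed by 11.3 to 18.3 times counting noise (median chi-square over its expectation). Their content of other tissue differed as well, as given below. The treated tumor columns are numbered 2, 3 and 4 while the labels number those tumors 1 to 3, and the column numbers are used here.

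T cells recognise antigen through a receptor whose signal is carried by the CD3 chains, with CD4 or CD8 as co-receptor. Activated CD8 T cells and NK cells kill by releasing perforin, which opens the target membrane, and granzymes, proteases that then trigger cell death. Regulatory T cells, which express the factor Foxp3, restrain the other cells, and receptors such as PD-1 and LAG-3 dampen T cells that have met antigen for a long time. Cultured CT26 cells hold no lymphocytes and give the level each gene has in the cancer cells in culture. The level of the cancer cells inside a tumor may differ and was not measured.

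Total counts were 33399701 to 48109497 per tumor library and 34787389 to 38144039 per cell library. The tumor libraries differed in other tissue. Summed skin keratin and keratinocyte transcripts (8 genes) reached 758.8 CPM (read counts scaled to library size by the TMM method) in vehicle tumor 2 and 1.33 to 1.57 CPM in the other 5. Summed neutrophil markers (8 genes) reached 669.3 CPM in midostaurin tumor 3 and 14.8 to 38.3 CPM in the others. Summed skeletal muscle markers (6 genes) were 32.9 CPM in vehicle tumor 1 and 52.8 CPM in midostaurin tumor 3, against 0.93 to 3.92 CPM elsewhere. Macrophage markers (9 genes) summed to 1299, 913.8 and 1210 CPM in vehicle tumors 1, 2 and 3 and to 353.4, 807.4 and 708.8 CPM in midostaurin tumors 2, 3 and 4. The part of these cells in the values below was not tested.

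Each of the 47 genes had counts in every tumor, from 10 to 6541 per library. In cultured cells 27 of the 47 had no count in any of the 6 libraries, and 13 more stayed below 1 CPM, with at most 15 counts in a library. The other 7 reached 1 CPM in at least 1 library of the cultured cancer cells. They were Tnfrsf9, Tigit, Havcr2, Lck, Ikzf2, Tnfrsf4 and Tnfrsf18, and for them a tumor value cannot be assigned to lymphocytes. For Tnfrsf18 this rests on midostaurin cells 2 alone, with 37 counts against 2 to 12 in the other cell libraries.

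**Figure D1:**
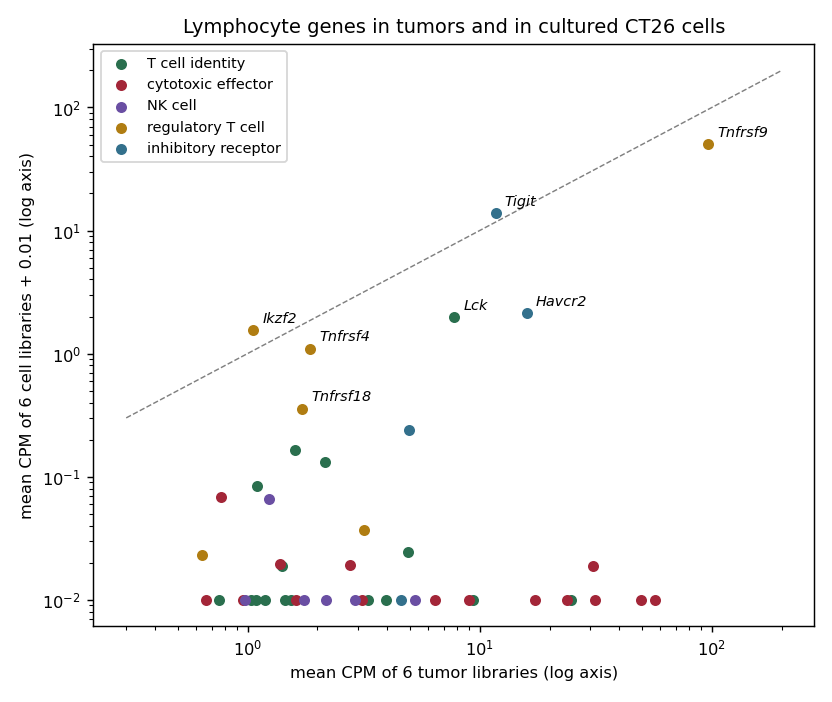
Mean CPM of each of the 47 genes over 6 tumor libraries (x axis, log) and over 6 cell libraries (y axis, log, with 0.01 CPM added so that genes at 0 can be drawn). Colours mark the 5 gene groups, the dashed line marks equal levels, and the 7 named genes reached 1 CPM in at least 1 cell library. The 2 tables were scaled separately, so distances from the line are approximate.

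Tnfrsf9, which encodes the T cell costimulator 4-1BB, measured 10.2, 77.7 and 64.3 CPM in DMSO cells 1, 2 and 3 and 9.5, 71.9 and 67.3 CPM in midostaurin cells 1, 2 and 3. Tigit, an inhibitory receptor of T and NK cells, measured 23.9, 8.58 and 8.67 CPM in the DMSO cells and 26.6, 8.23 and 6.46 CPM in the treated cells. For both genes the cell libraries numbered 1 stood apart from those numbered 2 and 3, low for Tnfrsf9 and high for Tigit, whatever the treatment. Lck, the kinase that starts T cell receptor signalling, lay between 1.22 and 3.53 CPM in cells. Havcr2, which encodes TIM-3, lay between 0.947 and 3.43 CPM, and Ikzf2, which encodes the factor Helios, between 0.819 and 2.5 CPM. Tnfrsf4, which encodes OX40, lay between 0.474 and 1.47 CPM, and Tnfrsf18, which encodes GITR, between 0.0516 and 1.03 CPM.

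These 7 were the members with enough counts to be tested in cells, and none was called by edgeR's quasi-likelihood test, where the share over all 14538 genes was 0% and 0.516% had an unadjusted p below 0.05. Every adjusted p among the 7 was 1.00 (edgeR). DESeq2 and limma-voom also called none of them (0.0138% of all genes each). Blocking on replicate number called none of them either (0.055% of all genes), with the smallest adjusted p at 0.992. With that block 4.33% of all genes had an unadjusted p below 0.05. Of the 7, 1 did, Tnfrsf4 (log2 fold change -0.84 ± 0.35 SE, edgeR unadjusted p = 0.0318).

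In the tumors none of the 47 genes was called, in either direction, against 0.0435% of the 16094 genes tested (edgeR, Benjamini-Hochberg adjusted p below 0.05). Of the 47, 22 had a log2 fold change above 0 and 25 below, with a median of -0.08, and the median over all tested genes was -0.01. An unadjusted p below 0.05 was found for 2 members (4.26%), Tnfrsf9 and Ctsw, against 19.9% of all genes. Without midostaurin tumor 2 it was found for 10 of the 47, against 16.1% of all genes, and without any other single tumor for 1 to 4. The 3 treated tumors lay above the 3 vehicle tumors for 1 member, Tnfrsf9 (13.5% of all genes), and all below them for 4, Ctsw, Nkg7, Eomes and Tigit (13.6% of all genes). DESeq2 called 1 member, Tnfrsf9, and gave 4 no adjusted p (Cd5, Ifng, Fasl and Foxp3), while it called 8.99% of all genes. Limma-voom called none (0.0994% of all genes).

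A missed threshold does not show equal levels, and the intervals say how much was resolved. The half-width of the 95% interval of the log2 fold change had a median of 0.91 over the 47 genes and ran from 0.36 to 2.44. For 16 of the 47 the whole interval lay within a 2-fold change in either direction. They were 7 of 16 T cell identity genes, 2 of 15 effector genes, 3 of 6 NK genes, 1 of 6 regulatory T cell genes and 3 of 4 inhibitory receptors.

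**Figure D2:**
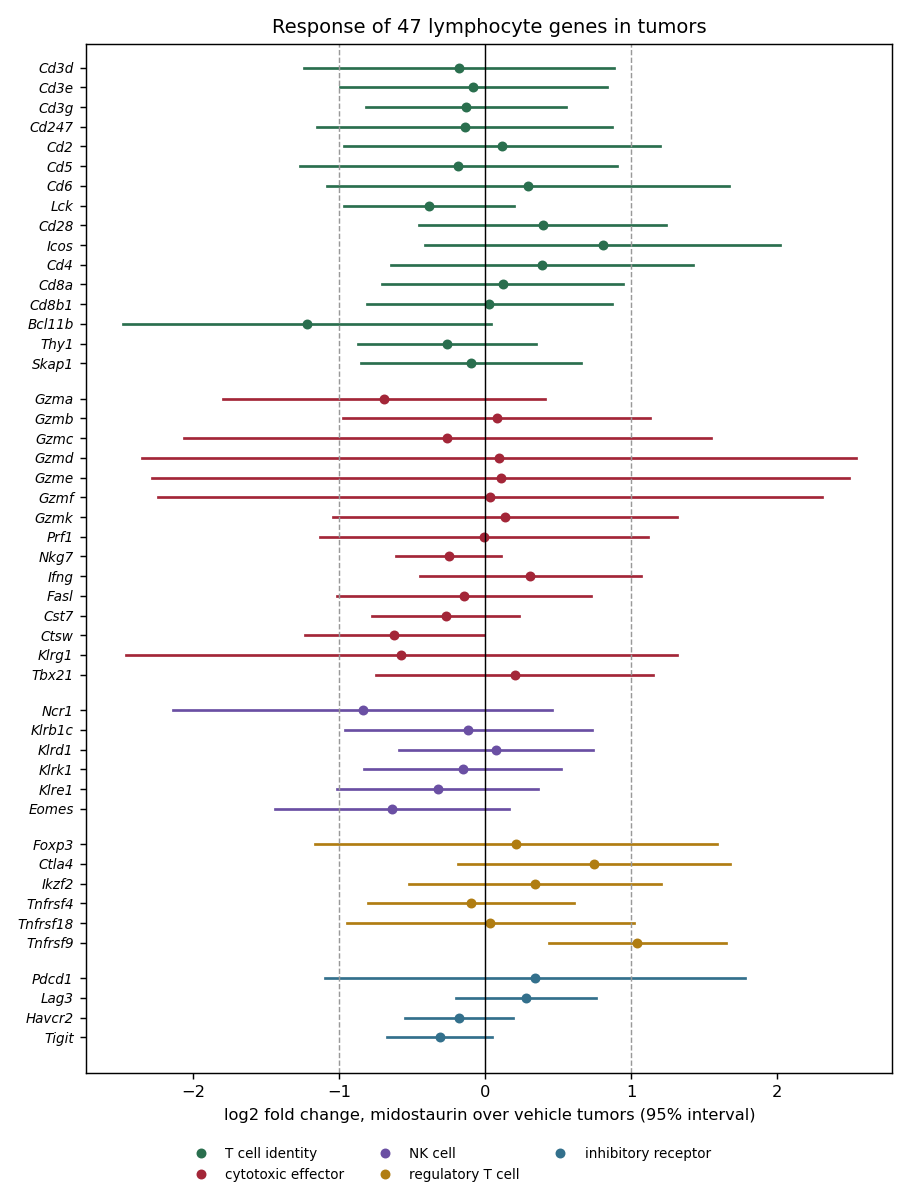
Log2 fold change of each of the 47 genes in midostaurin tumors over vehicle tumors (x axis, points) with its 95% interval from the quasi-likelihood fit (lines), 3 libraries per group. Dashed lines mark a 2-fold change. Of the 47 intervals, those of Tnfrsf9 and Ctsw leave out 0, and those of Gzmd, Gzme and Gzmf are the widest.

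None of the 16 T cell identity genes passed the test. Their median log2 fold change was -0.09, with 7 genes above 0 and 9 below, and in none did the groups fail to overlap. Tumor tissue holds many cell types, so fewer T cells and less RNA per T cell cannot be told apart.

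Cd3e encodes the CD3 epsilon chain (ENSMUSG00000032093, mm10 chromosome 9, 44998740 to 45009627, minus strand). It measured 5.25, 2.33 and 4.58 CPM in vehicle tumors 1, 2 and 3 and 2.39, 4.87 and 4.24 CPM in midostaurin tumors 2, 3 and 4. Vehicle tumor 2 and midostaurin tumor 2 were low and the other 4 close together, so the groups overlapped fully (log2 fold change -0.08 ± 0.39 SE, interval -0.99 to 0.83, edgeR adjusted p = 0.929). The partner chains Cd3d, Cd3g and Cd247 had log2 fold changes of -0.18, -0.13 and -0.14. Their sum with Cd3e was 13.5, 8.83 and 14.6 CPM in the vehicle tumors and 6.88, 14.1 and 13.0 CPM in the treated tumors. Midostaurin tumor 2 thus held the least CD3 transcript of the 6.

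Cd8a, which encodes the CD8 alpha chain of cytotoxic T cells, measured 8.44, 6.95 and 11.6 CPM with vehicle and 5.44, 13.6 and 10.3 CPM with the drug. The lowest and the highest of the 6 tumors were both treated (log2 fold change 0.12 ± 0.35, edgeR adjusted p = 0.882). Its partner Cd8b1 measured 3.27 ± 0.613 and 3.34 ± 1.43 CPM (mean ± SD, n = 3 each). Cd4, the co-receptor of helper T cells, measured 1.33, 0.819 and 0.547 CPM with vehicle and 0.731, 1.42 and 1.38 CPM with the drug. Of the treated tumors, 2 lay just above every vehicle tumor and the third among them (0.39 ± 0.44, edgeR adjusted p = 0.663). There were 6.28, 8.37 and 20.8 counts of Cd8a per count of Cd4 in the vehicle tumors and 7.34, 9.44 and 7.42 in the treated tumors. Vehicle tumor 3, with few Cd4 counts, stood above the other 5.

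The 3 identity genes with the smallest p were Bcl11b, Lck and Icos. Bcl11b, a transcription factor of the T lineage, measured 1.11, 2.62 and 0.866 CPM with vehicle and 0.479, 0.484 and 0.982 CPM with the drug (-1.22 ± 0.53, unadjusted p = 0.0555, edgeR adjusted p = 0.263). Its highest value was in vehicle tumor 2, the tumor with keratinocyte transcripts, and without that tumor the log2 fold change was -0.59. Skin cells also express Bcl11b, and their part in this value was not tested.

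Lck measured 9.45, 6.85 and 10.1 CPM with vehicle and 4.86, 7.30 and 8.05 CPM with the drug (-0.39 ± 0.24, edgeR adjusted p = 0.424). Cultured cells also hold Lck transcript, as given above. Icos, a costimulator of activated T cells, measured 1.01, 1.69 and 2.01 CPM with vehicle and 2.27, 4.72 and 1.27 CPM with the drug (0.80 ± 0.51, edgeR adjusted p = 0.427). Midostaurin tumor 3 alone exceeded the rest clearly, and without it the log2 fold change was 0.18.

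The remaining identity genes lay close to these. Cd28, the main costimulatory receptor of T cells, had a log2 fold change of 0.39 ± 0.36, and Cd2, an adhesion receptor, of 0.12 ± 0.46. Cd5 and Cd6, which tune receptor signals, had -0.19 ± 0.46 and 0.29 ± 0.58, and Skap1, an adaptor of T cell adhesion, -0.10 ± 0.32. Thy1, a surface protein that T cells share with fibroblasts, measured 27.0 ± 9.99 and 22.5 ± 2.02 CPM and had no count in cultured cells. Per kilobase of exon, Thy1 stood at 9.02 CPM in the vehicle tumors, against 0.994 for Cd3e and 2.47 for Cd8a.

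**Figure D3:**
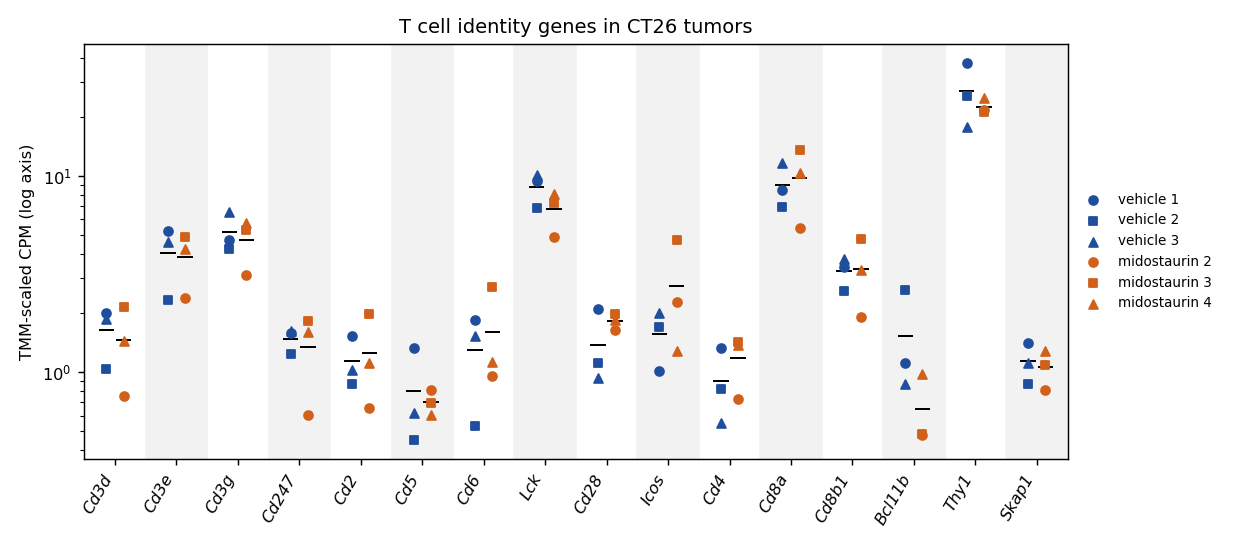
TMM-scaled CPM (y axis, log) of the 16 T cell identity genes in each of the 6 tumors. Blue symbols are vehicle tumors 1 to 3, orange symbols midostaurin tumors 2 to 4, and black bars the group means. Midostaurin tumor 2 (orange circles) is the lowest of the 6 in 9 of the 16 genes and midostaurin tumor 3 (orange squares) the highest in 8.

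The antigen receptor itself was read from the constant regions, a list that is no part of the 47. Of 7 genes matched, 5 were tested and none passed (1 above 0, 4 below, median -0.27). The 2 with the smallest p mark gamma delta T cells. Trdc, the delta constant region, measured 1.97, 1.06 and 0.593 CPM with vehicle and 0.731, 0.757 and 0.460 CPM with the drug (edgeR adjusted p = 0.356). Tcrg-C2, a gamma constant region, had a log2 fold change of -0.78 ± 0.56 (edgeR adjusted p = 0.485). Constant regions are near-identical copies of each other in part, so the split of reads among them is uncertain.

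Cytotoxic effector genes showed a different picture, in which single tumors ranged widely inside both groups. None of the 15 passed the test, 7 lay above 0 and 8 below, and the median log2 fold change was -0.01. Granzymes C to F, a family of proteases that activated killer cells make, ranged 9.51-fold to 18.4-fold among the 6 tumors, and both ends of each range were treated tumors. Midostaurin tumor 2 was the highest of the 6 for 7 of the 15 effector genes and midostaurin tumor 3 the lowest for 8.

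Gzmb encodes granzyme B, which cleaves caspases in the target cell (ENSMUSG00000015437, mm10 chromosome 14, 56258838 to 56262260, minus strand). It measured 25.1, 37.5 and 29.1 CPM with vehicle and 57.9, 19.0 and 19.8 CPM with the drug. The first treated tumor lay above every vehicle tumor and the other 2 below every one (log2 fold change 0.08 ± 0.44, edgeR adjusted p = 0.941). Prf1, which encodes perforin, measured 20.9, 30.6 and 40.9 CPM with vehicle and 55.0, 17.3 and 19.5 CPM with the drug, the same arrangement (-0.01 ± 0.47, edgeR adjusted p = 0.995). Without midostaurin tumor 2 the log2 fold changes were -0.66 for Gzmb and -0.74 for Prf1.

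The granzyme genes C to F lie in the same cluster as Gzmb on chromosome 14. Gzmd (mm10 chromosome 14, 56129556 to 56132608) measured 20.4, 33.8 and 89.4 CPM with vehicle and 127.8, 6.93 and 18.6 CPM with the drug. Gzmf measured 24.5, 39.2 and 104.4 CPM with vehicle and 139.4, 11.0 and 21.6 CPM with the drug. Vehicle tumor 3 and midostaurin tumor 2 were high for both, with midostaurin tumor 3 the lowest. Gzme measured 7.84, 8.43 and 33.6 CPM with vehicle and 42.9, 2.63 and 8.15 CPM with the drug. Gzmc measured 14.3, 31.5 and 31.6 CPM with vehicle and 47.8, 5.03 and 11.8 CPM with the drug. The log2 fold changes of these 4 genes lay between -0.26 and 0.11 with standard errors of 0.76 to 1.03, since each group held high and low tumors. Without midostaurin tumor 2 they lay between -1.90 and -1.62.

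Per kilobase of exon these genes and Tnfrsf9 were the most abundant of the 47 in the vehicle tumors, with means of 61 CPM for Gzmf, 49.6 for Gzmd, 28.9 for Gzmc, 21.3 for Gzmb and 18.2 for Gzme. Tnfrsf9 stood at 23.2 CPM per kilobase and Prf1 at 11.9. With the spread given above, the order among Gzmf, Gzmd, Gzmc, Gzmb and Gzme is not resolved.

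The promoters of 3 genes of this cluster, Gzmb, Gzmd and Gzme, are shown as a description of their sequence. Whether promoter sequence bears on the levels in the tumors was not tested. Each is RefSeq sequence of GRCm38.p6, minus strand, from 150 bases before to 10 bases after the start that RefSeq annotates, with 2 motifs in capitals, TGTGGT (the RUNX motif) and TGANTCA (the AP-1 motif), searched on both strands. These starts differ from the ends of the gene coordinates given above, and for Gzmb the whole window lies upstream of them.
Gzmb at chr14:56262325-56262484: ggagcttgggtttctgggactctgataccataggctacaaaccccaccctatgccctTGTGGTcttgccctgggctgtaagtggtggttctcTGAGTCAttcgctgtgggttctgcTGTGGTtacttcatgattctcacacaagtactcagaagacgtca
Gzmd at chr14:56132584-56132743: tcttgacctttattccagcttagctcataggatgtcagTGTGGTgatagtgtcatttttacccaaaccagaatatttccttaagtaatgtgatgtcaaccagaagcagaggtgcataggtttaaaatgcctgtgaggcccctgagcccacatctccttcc
Gzme at chr14:56120616-56120775: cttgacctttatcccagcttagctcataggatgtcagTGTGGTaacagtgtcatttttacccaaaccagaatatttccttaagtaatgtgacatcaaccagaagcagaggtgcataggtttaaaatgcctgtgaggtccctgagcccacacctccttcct

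TGTGGT occurred in this window in all 5 of Gzmb, Gzmc, Gzmd, Gzme and Gzmf, against 8.92% of 32851 RefSeq promoter windows of the same length. TGANTCA occurred in Gzmb alone of the 5, against 4.53% of all windows, and TATAAA (the TATA box motif) in none of the 5, against 7.88%. The windows of Gzmd and Gzme were 95% identical and those of Gzmc and Gzmf, the least alike from Gzmc to Gzmf, 75.0%. Gzmc to Gzmf are therefore not independent instances. The windows of Gzmb and Gzmd were 45.6% identical. A match is a description of the letters and not of binding.

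The transcripts of Gzmd and Gzme were 90.0% identical, and 21.7% of the 50-base windows of Gzmd, 20.6% of those of Gzme and 7.36% of those of Gzmf also occurred in another gene of the cluster. No such window of Gzmb did. The division of reads among granzymes C to G and N is therefore uncertain, while their sum does not depend on how reads were divided among them. Summed over these 6 genes, the tumors held 87.4, 141.3 and 344.3 CPM with vehicle and 493.8, 33.6 and 79.2 CPM with the drug. The sum overlapped between groups (log2 fold change 0.08 ± 0.97, edgeR adjusted p = 0.974), like the single genes.

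The next comparison was chosen after the values were seen and has no test. The summed CPM of granzymes C to F per summed CPM of the CD3 chains was 4.96, 12.8 and 17.8 in the vehicle tumors and 52.0, 1.81 and 4.61 in the treated tumors. Midostaurin tumor 2 was lowest for CD3 and highest for the granzymes. Midostaurin tumor 3 was near the top for CD3 and lowest for the granzymes, and it was the tumor rich in neutrophil markers. Macrophage markers were lowest in midostaurin tumor 2.

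**Figure D4:**
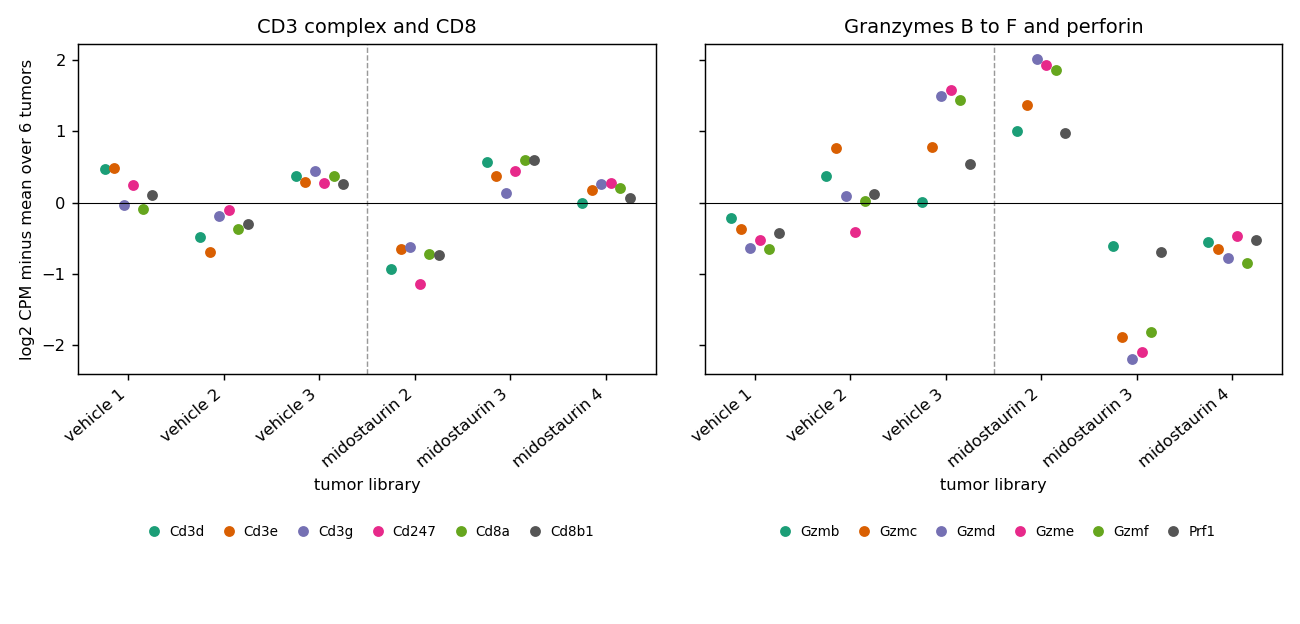
Log2 CPM of each gene minus its own mean over the 6 tumors (y axis), by tumor (x axis), for CD3 and CD8 genes (left) and for granzymes B to F and perforin (right). The dashed line separates vehicle from midostaurin tumors. All 6 genes on the left are lowest in midostaurin tumor 2 except Cd3e, which is marginally lower in vehicle tumor 2, and all 6 on the right are highest in midostaurin tumor 2.

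The other effector genes ranged less among the 6 tumors than Gzmc to Gzmf did. Gzma, granzyme A, measured 13.5, 13.9 and 6.11 CPM with vehicle and 11.5, 4.27 and 4.91 CPM with the drug (-0.69 ± 0.47, edgeR adjusted p = 0.453). Ctsw, a cysteine protease of killer cells, measured 4.14, 2.96 and 2.99 CPM with vehicle and 1.71, 2.60 and 2.24 CPM with the drug. All 3 treated tumors lay below the vehicle tumors, and the difference missed the threshold (-0.62 ± 0.26, unadjusted p = 0.0471, edgeR adjusted p = 0.245). Nkg7, a membrane protein of cytotoxic granules, measured 7.10, 6.21 and 7.55 CPM with vehicle and 5.62, 6.15 and 5.77 CPM with the drug (-0.25 ± 0.15, edgeR adjusted p = 0.405). The groups did not overlap, though the highest treated tumor and the lowest vehicle tumor nearly met.

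Ifng encodes interferon gamma, the cytokine through which T and NK cells act on tumor and myeloid cells. It had 19, 26 and 27 counts in the vehicle tumors and 26, 29 and 32 counts in the treated tumors. On the CPM scale these were 0.469, 0.687 and 0.616 against 0.655, 0.878 and 0.669, with overlap (0.31 ± 0.32, edgeR adjusted p = 0.631). At these counts a modest difference was not detectable.

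Klrg1, a receptor of terminally differentiated killer cells, measured 1.63, 2.33 and 1.82 CPM with vehicle and 3.07, 0.424 and 0.376 CPM with the drug. Midostaurin tumor 2 was the highest of the 6 and the other treated tumors the lowest, as for Gzmb. Of the remaining members, Tbx21, the factor T-bet that drives the program, had a log2 fold change of 0.20 ± 0.40, and Gzmk, granzyme K, of 0.14 ± 0.50. Fasl, the death ligand, had -0.14 ± 0.37, and Cst7, an inhibitor of granule proteases, -0.27 ± 0.21.

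NK cell genes gave no call either, with 1 of 6 above 0 and a median of -0.24. Ncr1, which encodes the activating receptor NKp46, measured 3.35, 2.3 and 1.12 CPM with vehicle and 2.07, 0.636 and 1.07 CPM with the drug (-0.84 ± 0.55, edgeR adjusted p = 0.437). Midostaurin tumor 3 had the least and vehicle tumor 1 the most, and the groups overlapped. Eomes, a transcription factor of NK and memory T cells, measured 2.64, 2.80 and 2.55 CPM with vehicle and 2.52, 1.06 and 1.55 CPM with the drug. The groups did not overlap, though midostaurin tumor 2 nearly reached vehicle tumor 3, and the test did not pass (-0.64 ± 0.34, edgeR adjusted p = 0.341).

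Klre1, a lectin-like receptor of NK cells, measured 1.53, 1.08 and 1.5 CPM with vehicle and 0.882, 1.30 and 1.11 CPM with the drug (-0.33 ± 0.29, edgeR adjusted p = 0.574). Klrk1, which encodes the activating receptor NKG2D, measured 5.54 ± 1.99 and 4.97 ± 0.837 CPM, and Klrd1, which encodes CD94, 2.81 ± 0.840 and 2.97 ± 0.343 CPM. Klrb1c, a lectin-like receptor of NK cells, measured 1.01 ± 0.350 and 0.934 ± 0.198 CPM. For these 3 the intervals lay within a 2-fold change.

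**Figure D5:**
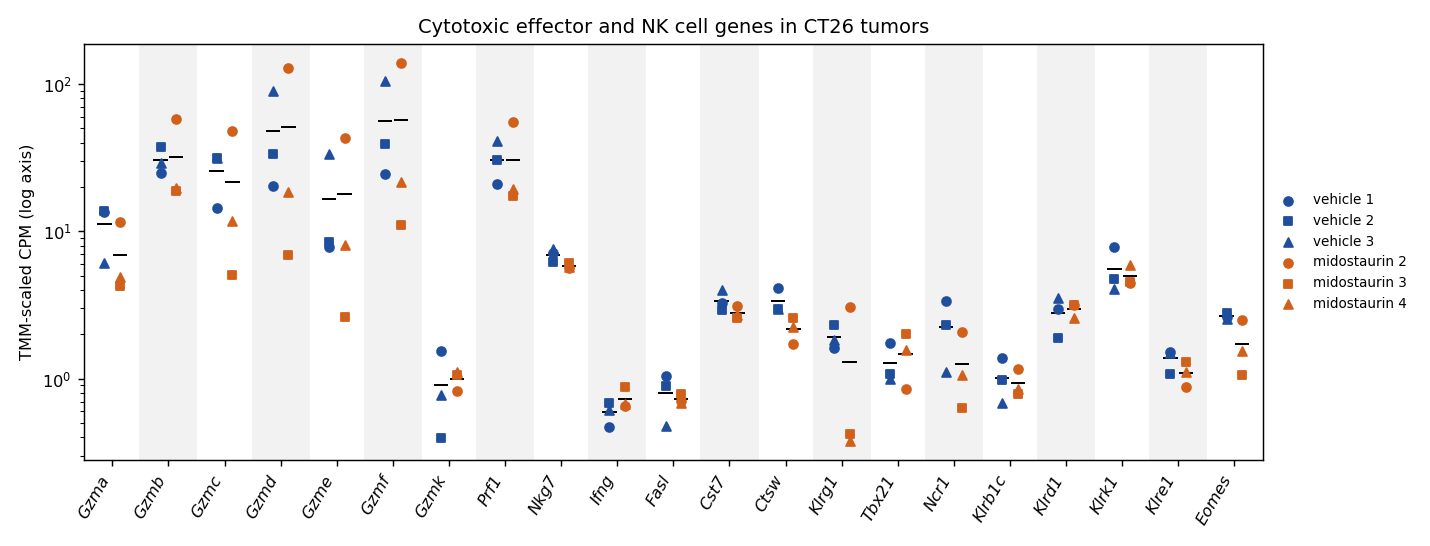
TMM-scaled CPM (y axis, log) of the 15 cytotoxic effector genes and the 6 NK cell genes in each of the 6 tumors, with symbols by tumor and black bars for group means. For Gzmb to Gzmf, Prf1 and Klrg1, midostaurin tumor 2 (orange circles) is at the top and the other treated tumors at the bottom, except that for Gzme midostaurin tumor 4 lies just above vehicle tumor 1.

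Among genes linked to regulatory T cells, Tnfrsf9 was the member with the smallest p of all 47. It measured 60.8, 83.8 and 45.2 CPM in vehicle tumors 1, 2 and 3 and 164.8, 120.8 and 104.6 CPM in midostaurin tumors 2, 3 and 4 (ENSMUSG00000028965, mm10 chromosome 4, 150914562 to 150946102). All treated tumors exceeded all vehicle tumors, by 2.06-fold in the fit (log2 fold change 1.04 ± 0.26, interval 0.43 to 1.65). The difference missed the threshold with edgeR (unadjusted p = 0.00492, adjusted p = 0.115) and passed it with DESeq2 (adjusted p = 0.00124). Across fits without 1 tumor the log2 fold change stayed between 0.83 and 1.30 and the smallest edgeR adjusted p was 0.166.

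Tnfrsf9 transcript was not particular to lymphocytes. Cultured CT26 cells held 9.5 to 77.7 CPM of Tnfrsf9. The libraries numbered 2 and 3 lay in the range of the vehicle tumors and those numbered 1 below it, while Cd3e had no count there. In cells the log2 fold change with midostaurin was -0.03 ± 0.94 (edgeR adjusted p = 1.00), and -0.04 ± 0.05 with the replicate block. How much of the tumor transcript came from cancer cells was not tested.

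Foxp3, the defining factor of regulatory T cells, had 31, 18 and 23 counts in the vehicle tumors and 34, 33 and 10 counts in the treated tumors. On the CPM scale these were 0.765, 0.476 and 0.524 against 0.857, 0.999 and 0.209, so the highest and the lowest tumor were both treated (0.21 ± 0.58, edgeR adjusted p = 0.875). Foxp3 shares exon sequence with genes on the other strand and with Flicr on its own strand, which leaves its few counts uncertain.

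Ctla4, an inhibitory receptor abundant on regulatory T cells, measured 2.00, 1.77 and 3.33 CPM with vehicle and 3.53, 5.90 and 2.53 CPM with the drug. Of the 3 treated tumors 2 exceeded all vehicle tumors and the third lay among them (0.75 ± 0.39, unadjusted p = 0.0994, edgeR adjusted p = 0.338). Ikzf2 measured 0.913, 0.978 and 0.912 CPM with vehicle and 0.680, 1.60 and 1.27 CPM with the drug (0.34 ± 0.36, edgeR adjusted p = 0.643), within or just below its range in cultured cells. Tnfrsf4 and Tnfrsf18 had log2 fold changes of -0.10 ± 0.30 and 0.04 ± 0.41. The median of the 6 genes was 0.28, and -0.04 without midostaurin tumor 3.

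The inhibitory receptors were not called, with 2 of 4 above 0 and a median of 0.05. Pdcd1, which encodes PD-1, measured 4.56, 1.96 and 5.63 CPM with vehicle and 1.69, 8.39 and 5.35 CPM with the drug. It was low in vehicle tumor 2 and midostaurin tumor 2, the same tumors that were low for Cd3e (0.34 ± 0.61, edgeR adjusted p = 0.795). Lag3, which binds MHC class II, measured 3.95, 4.36 and 5.08 CPM with vehicle and 4.51, 6.33 and 5.41 CPM with the drug (0.28 ± 0.20, edgeR adjusted p = 0.487). Of the treated tumors, 2 lay above every vehicle tumor.

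Havcr2, which macrophages and dendritic cells also express, measured 15.3, 17.7 and 17.8 CPM with vehicle and 13.8, 18.1 and 13.0 CPM with the drug (-0.18 ± 0.16, edgeR adjusted p = 0.565). Tigit measured 12.0, 12.2 and 14.7 CPM with vehicle and 11.6, 8.99 and 10.8 CPM with the drug, without overlap (-0.31 ± 0.15, unadjusted p = 0.0776, edgeR adjusted p = 0.304). Its level in cultured cells, 6.46 to 26.6 CPM, spans that of the tumors, so this difference too cannot be assigned to lymphocytes.

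Ratios between 2 genes within a tumor need no scaling between libraries, and 7 were tested by an exact two-sided permutation test, which with 3 against 3 tumors cannot go below 0.1. The smallest p of the 7 was 0.5. Counts of Gzmb per count of Cd3e were 4.76, 16.0 and 6.33 with vehicle and 24.1, 3.88 and 4.66 with the drug (exact p = 0.9, adjusted p = 1). Counts of Prf1 per Cd3e were 3.97, 13.1 and 8.90 with vehicle and 22.9, 3.54 and 4.60 with the drug (exact p = 0.9). Midostaurin tumor 2 was the highest of the 6 in both.

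Ifng per Cd3e was 0.0913, 0.299 and 0.136 with vehicle and 0.277, 0.183 and 0.160 with the drug (exact p = 0.5). Ncr1 per Cd3e was 0.639, 0.989 and 0.246 with vehicle and 0.864, 0.133 and 0.253 with the drug (exact p = 0.5). Foxp3 per Cd3e was 0.147, 0.209 and 0.117 with vehicle and 0.361, 0.207 and 0.0516 with the drug (exact p = 1). Pdcd1 per Cd3e was 0.869, 0.842 and 1.23 with vehicle and 0.707, 1.72 and 1.26 with the drug (exact p = 0.6), and for Cd8a per Cd4 the exact p was 0.8. In each of these 5 ratios the groups overlapped, and every adjusted p was 1.

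Other genes of the lymphocyte pathways came from lists that are no part of the 47, and none of their 69 tested genes passed with edgeR. Of 20 T cell receptor signalling genes, 9 lay above 0 and 11 below (median -0.20). Ptpn22, a phosphatase that restrains receptor signals, measured 34.6, 39.2 and 54.3 CPM with vehicle and 71.6, 77.5 and 80.1 CPM with the drug (0.84 ± 0.17, edgeR adjusted p = 0.0886). Nfatc2, a factor activated by calcium, had a log2 fold change of -0.99 ± 0.25 (edgeR adjusted p = 0.118). Cultured cells express Ptpn22 as well.

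Of 14 homing and memory genes, 8 lay above 0 (median 0.10). Il7r, the interleukin 7 receptor of naive and memory T cells, measured 3.18, 2.01 and 2.44 CPM with vehicle and 13.2, 7.39 and 5.89 CPM with the drug, without overlap (1.79 ± 0.35, edgeR adjusted p = 0.0874). Il7r had no count in cultured cells. It was highest in midostaurin tumor 2, where CD3 was lowest. Itga4, an adhesion integrin chain of leukocytes, had -0.91 ± 0.28 (edgeR adjusted p = 0.158).

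Of 13 tested lymphocyte cytokine and cytokine receptor genes, 12 lay above 0 (median 0.60). Midostaurin tumor 3, rich in neutrophil markers, held the most of several, named here after their values were seen. Csf2 had 299 counts there and 3 to 22 in the other tumors, Il10 had 89 against 4 to 21, and Tnf had 213 against 56 to 107. Il12rb2, a receptor chain for interleukin 12, had a log2 fold change of 0.82 ± 0.38 (edgeR adjusted p = 0.284), and Il18rap, a receptor chain for interleukin 18 that the cancer cells also express, 0.47 ± 0.25 (edgeR adjusted p = 0.338). All 6 tested chemokines that attract lymphocytes lay above 0 (median 0.56). Cxcl10, a ligand of the chemokine receptor CXCR3, measured 27.9, 22.6 and 12.6 CPM with vehicle and 39.2, 38.9 and 26.6 CPM with the drug (0.73 ± 0.30, edgeR adjusted p = 0.24). Ccl3, which neutrophils and macrophages also make, reached 97.5 CPM in midostaurin tumor 3, the tumor rich in neutrophil markers, and 4.68 to 10.4 CPM in the others.

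Of 11 further genes of inhibition and exhaustion, 9 lay above 0 (median 0.32). Nr4a1, induced by receptor signals in many cell types, measured 32.3, 30.1 and 31.6 CPM with vehicle and 47.5, 60.7 and 46.3 CPM with the drug (0.72 ± 0.12, edgeR adjusted p = 0.0841). Maf, a factor of T cells and macrophages, had -1.38 ± 0.30 (edgeR adjusted p = 0.0974). Cultured cells express Nr4a1. The summed macrophage markers given above were lower in the treated tumors, though none of these markers was called. The part of either cell type in the values of Nr4a1 and Maf was not tested.

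Markers of other leukocytes were not called. All 9 macrophage markers lay below 0 (median -0.81), with Mrc1 at -1.68 ± 0.51 and Fcgr1 at -0.66 ± 0.20 (edgeR adjusted p = 0.152 and 0.148). Of 6 markers shared by all leukocytes, 5 lay below 0 (median -0.30), with Laptm5 at -0.72 ± 0.23 and Coro1a at -0.54 ± 0.27 (edgeR adjusted p = 0.162 and 0.321). Cultured cells also express some of these markers, such as Arhgdib (96.4 to 275 CPM) and Cd53 (up to 15.9 CPM). Among the macrophage markers they express Cd68 (up to 25.4 CPM). For these genes a tumor value cannot be assigned to leukocytes. All 5 tested neutrophil markers lay above 0 (median 3.59), with Mmp8 and Cxcr2 at 2.48 ± 0.82 and 3.59 ± 1.26 (edgeR adjusted p = 0.173 and 0.191). Midostaurin tumor 3 stood far above the rest, with 669.3 CPM summed over the 8 neutrophil markers. Midostaurin tumors 2 and 4 held 38.3 and 20.3 CPM, and the vehicle tumors 14.8 to 29.3 CPM. Conventional dendritic cell markers had a median of 0.75, with 6 of 7 above 0, and Ccl22 at 1.68 ± 0.53 (edgeR adjusted p = 0.157) and Zbtb46 at -0.26 ± 0.22 (0.547). Zbtb46 also measured 1.97 to 3.92 CPM in cultured cells, so its tumor value cannot be assigned to dendritic cells.

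B cell markers were low. Ms4a1, a surface protein of B cells named here after its values were seen, had 0 to 4 counts per tumor and was at 0 in 5 of the 6. Of 4 tested B cell and plasma cell markers, 2 lay above 0 and 2 below (median 0.03). Above 0 were Jchain, with 0 to 93 counts per tumor, at 1.13 ± 1.27 and Cd79b at 0.47 ± 0.62 (edgeR adjusted p = 0.663 and 0.716). Cd79a, a chain of the B cell receptor, had a log2 fold change of -1.85 ± 0.49 (edgeR adjusted p = 0.123) and Pax5 of -0.41 ± 0.46 (0.66), both also found at low counts in cultured cells. Of 6 mast cell markers, 3 lay above 0 and 3 below (median 0.09), with Ms4a2 at 0.79 ± 0.61 and Tpsb2 at 0.37 ± 0.64 (edgeR adjusted p = 0.516 and 0.787). Of the skin list only Krt10 was tested, at 30.5 CPM in vehicle tumor 2 and 1.15 to 1.46 CPM elsewhere (edgeR adjusted p = 0.24), and in the muscle list Myh4 and Acta1 had adjusted p = 0.499 and 0.855.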

How the data were processed

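RNA-seq counts per gene were deposited by the authors in 1 table for cells and 1 for tumors. Per the submitters' processing notes, FastQC 0.11.2, Bowtie2 2.3.4 and RSEM were used with mm10, and per the labels' protocols the poly(A) libraries were directional. The annotation, the counting strand and any rounding are not given in the sources used here, so overlapping genes are uncertain. The treated tumor columns numbered 2 and 3 were matched to labels, and column 4 was used as the remaining library of that group.

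Each table was fitted whole with edgeR 4.0.16 (R 4.3.3; filterByExpr, TMM, quasi-likelihood F-test, Benjamini-Hochberg threshold 0.05), on its own 2 groups. The ± beside a log2 fold change is its standard error, and intervals are 95%. Alternatives were DESeq2 1.42.0, limma-voom (limma 3.58.1), RLE size factors, no low-count filter, each library left out and a replicate block, and the summed granzyme cluster was added after seeing the data. Ratios had 0.5 added to each count. Scripts were tested on simulated data. Same-numbered cell libraries deviated together (correlations 0.902, 0.719 and 0.702), so in cells the numbers pair the samples, as read from the data. Between numbers 2 and 3 the deviations also correlated, at 0.547 and 0.528. The main cell fit did not use the pairs, so shared deviations entered its scatter, while the replicate block used them.

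The members and lists were chosen with earlier results of these data known. Values in every tumor are given for Cd3e, Cd4, Cd8a, Gzmb, Prf1, Ifng, Ncr1, Foxp3, Pdcd1 and the 3 tested members of each group with the smallest p, and 2 genes are named from each further list. Others given per tumor (Gzmc to Gzmf, Klrg1) were chosen after their values were seen. So were Ms4a1, Jchain, Cd79b, Csf2, Il10, Tnf, Arhgdib, Cd53 and Cd68 of the further lists. One marker of the further lists is not reported here.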

Additional observations from a re-analysis of the deposited data

How the results depend on the processing

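Of 47 genes, none passed with edgeR under any scaling, filter or left-out tumor tried, and DESeq2 called 1, Tnfrsf9. Over all genes the count in tumors was 7, and it was 0 with no low-count filter, 1447 with DESeq2, 16 with limma-voom and 0 to 1 with 1 tumor left out. In cells it was 0, against 2 with DESeq2 and 2 with limma-voom. With the replicate number as a block, the tumor count was 0 and the cell count 8. Tumor numbers 2 and 3 are shared between the groups, and their same-numbered deviations correlated at 0.153 and -0.187, so they share only a number. Vehicle tumor 1 and midostaurin tumor 4 have no partner of the same number. With the block, the tumor log2 fold changes therefore rested on tumors 2 and 3 of each group and are no check on all the tumors. With that block the median of the 6 regulatory T cell genes was 0.52, and the log2 fold change turned sign for Cd3e (0.066), Cd5 (0.51), Cd8a (-0.059), Cd8b1 (-0.042), Gzmd (-0.82), Gzme (-0.59), Gzmf (-0.67), Fasl (0.17), Klrb1c (0.22), Klrk1 (0.029) and Tnfrsf4 (0.16). It called none of the 47. Sign also turned, far from any threshold, with limma-voom for Cd2 (-0.010), Cd8b1 (-0.074), Gzmb (-0.10), Gzmd (-0.60), Gzme (-0.39), Gzmf (-0.51), Foxp3 (-0.10) and Tnfrsf18 (-0.037), and for Prf1 (0.0021, RLE size factors) and Prf1 (0.0022, DESeq2). The cause of the turns with limma-voom, RLE size factors and DESeq2 was not tested.

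With 1 tumor left out, the median log2 fold change ran from -0.66 to 0.10 for the effector genes (lowest without midostaurin tumor 2) and from -0.035 to 0.48 for the regulatory T cell genes (lowest without midostaurin tumor 3). The summed granzyme cluster ran over -1.76 to 0.82. Differences in log2 ratio ran over Cd8a/Cd4 -0.72 to 0.14, Gzmb/Cd3e -0.88 to 0.46, Prf1/Cd3e -0.94 to 0.41, Ifng/Cd3e -0.0098 to 0.85, Foxp3/Cd3e -0.57 to 0.84 and Pdcd1/Cd3e -0.032 to 0.61. Members whose log2 fold change turned sign in at least 1 such fit ran over Cd3d -0.56 to 0.13, Cd3e -0.35 to 0.16, Cd3g -0.30 to 0.089, Cd247 -0.41 to 0.20, Cd2 -0.37 to 0.42, Cd5 -0.46 to 0.41, Cd6 -0.31 to 0.64, Cd8a -0.19 to 0.40, Cd8b1 -0.31 to 0.30, Thy1 -0.49 to 0.064, Skap1 -0.26 to 0.10, Gzmb -0.66 to 0.36, Gzmc -1.62 to 0.21, Gzmd -1.90 to 0.92, Gzme -1.62 to 1.14, Gzmf -1.78 to 0.85, Gzmk -0.21 to 0.78, Prf1 -0.74 to 0.28, Fasl -0.41 to 0.092, Tbx21 -0.070 to 0.51, Klrb1c -0.33 to 0.18, Klrd1 -0.13 to 0.28, Klrk1 -0.33 to 0.18, Foxp3 -0.14 to 0.66, Tnfrsf4 -0.35 to 0.11, Tnfrsf18 -0.24 to 0.34 and Pdcd1 -0.20 to 0.75. Where an arm held 2 tumors, the spread was still pooled over both arms. Counts of 10 to 34 per tumor limit Ifng and Foxp3, and the spread between 3 tumors limits the granzymes.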

Other observations

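Variable segments of the antigen receptors belong to no comparison above. The 144 T cell receptor V segments summed to 169, 109 and 237 counts in vehicle tumors 1, 2 and 3 and to 95, 163 and 136 counts in midostaurin tumors 2, 3 and 4, with 0 in cultured cells. The lowest sum was in midostaurin tumor 2, the tumor that was also lowest for the CD3 chains. The 218 immunoglobulin V segments, which B and plasma cells transcribe, summed to 289, 19 and 25 counts with vehicle and to 49, 511 and 161 counts with the drug, again with 0 in cultured cells. Vehicle tumor 1 and midostaurin tumor 3, the tumors with muscle transcripts, held the most.

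Counts per Cd3e count, described after the values were seen and not tested, were 0.380, 0.761 and 0.726 for Ctla4 with vehicle and 1.47, 1.21 and 0.596 with the drug. For Icos they were 0.193, 0.727 and 0.438 with vehicle and 0.947, 0.969 and 0.301 with the drug. In both genes midostaurin tumors 2 and 3 lay above every vehicle tumor and midostaurin tumor 4 lay among them.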
